A study of Mus musculus with 9 samples.

Results

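The data described here are the expression profile of untreated PT-22 cells, a mouse kidney cell line labelled as proximal tubule. The libraries were chosen by their labels alone, as the 3 day 0 samples with no treatment (replicates A, B and C), out of 9 in the series. The other 6 libraries, 3 from day 6 after 1 uM 4-hydroxytamoxifen and 3 from day 12 after 1 ug/ml doxycycline, carry the same modified line and are not compared here. All 9 libraries came from polyadenylated RNA of cells grown in DMEM with 3% fetal bovine serum. The cells carry the genotype Pax2-/-, Pax8fl/fl, Rosa-CreERT2, together with the vector Pax8-pTRIPZ, so even the untreated cells lack intact Pax2 by their label and hold both a Cre fusion that tamoxifen can activate and a Pax8 vector that doxycycline can induce. The labels do not say whether the 3 replicates are separate cultures, so the spread given below may be technical.

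The proximal tubule is the first part of the nephron after the glomerulus, and it recovers most of the filtered glucose, amino acids, phosphate, bicarbonate and protein. It does so with apical sodium-coupled carriers, a brush border rich in peptidases, an endocytic receptor pair made of megalin and cubilin, and a metabolism built on mitochondrial oxidation and gluconeogenesis. Its S1, S2 and S3 segments differ in which carriers they use, and HNF4A is a transcription factor well known for holding its identity, while PAX2 and PAX8 are needed earlier, when the nephron forms.

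The libraries held 86767334 (A), 64713446 (B) and 71686712 (C) counts, over 21886, 21215 and 21551 genes with at least 1 count. A limit of 3 counts corresponds to 0.0346, 0.0464 and 0.0418 CPM (counts scaled to the library total) in the 3 libraries, and covers counting error only. Levels below are the authors' TPM, a share of all transcripts corrected for transcript length, as a mean of the 3 libraries. High means 100 TPM or more, moderate 10 to under 100, low 1 to under 10, and a gene under 1 TPM was not counted as expressed. Across the 11183 protein-coding genes at 1 TPM or more, log2(TPM + 1) correlated between libraries at 0.9970 to 0.9975, across genes that are not independent replicates. No library stood apart from the others.

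Of 21974 protein-coding genes, 11183 (50.9%) were at 1 TPM or more, 8031 (36.5%) at 10 or more and 1309 (5.96%) at 100 or more, while 6320 (28.8%) had no count in any library. These shares are the background against which the gene lists below are read. The median coefficient of variation over the 3 libraries was 2.94% for high genes, 3.39% for moderate genes and 6.66% for low genes, but 24.7% between 0.1 and 1 TPM. Values under 1 TPM are therefore loose: of the 245 listed genes under that level, 169 had fewer than 30 counts in the 3 libraries together. Segment and cell type markers close to the limit were Postn at 1.42, Nos1 at 1.35, Ace at 1.13, Egf at 1.09 and Plvap at 1.01 TPM just inside, and Keg1 at 0.993, Acta2 at 0.97, Slc2a2 at 0.85, Col1a1 at 0.713 and Ttc36 at 0.65 TPM just outside. Genes of other lists lay as close, such as Snai1 at 1.01, Gsta3 at 1.02 and Fbp2 at 1.05 TPM inside, and Slc47a1 at 0.987, Abcb1b at 0.97 and Dll1 at 0.95 TPM outside.

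The most abundant messages were those of mitochondria and translation. Among the 25 highest protein-coding genes, 12 were mitochondrially encoded and 7 were ribosomal proteins. The 13 mitochondrially encoded proteins made up 19.7% ± 0.754 (SD, n = 3) of all TPM but 5.81% ± 0.131 of all counts. Part of this gap lay in mt-Atp8, an ATP synthase subunit gene of 204 bases, which held 10.3% of TPM on 0.0624% of counts. With its annotated exon length its level would be 9540 TPM, not the 102600 TPM deposited, so the TPM of very short genes was not read as abundance. Another 8.23% of TPM and 1.72% of counts lay in 5 chromosome 1 pseudogenes. Whether reads of mitochondrially encoded genes were assigned to these pseudogenes was not tested. Outside mitochondria and ribosomes, the leading messages were the elongation factor gene Eef1a1 at 4883 TPM, the growth-related Tpt1 at 3075, the calcium-binding S100a6 at 2568, the glycolytic Gapdh at 2503 and the ferritin light chain Ftl1 at 2474. The next were Ptma at 2452, the surface protein gene Ly6e at 2308, cyclophilin A (Ppia) at 2220, galectin-1 (Lgals1) at 2139 and the chaperone gene Hsp90ab1 at 1824 TPM.

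**Figure D1:**
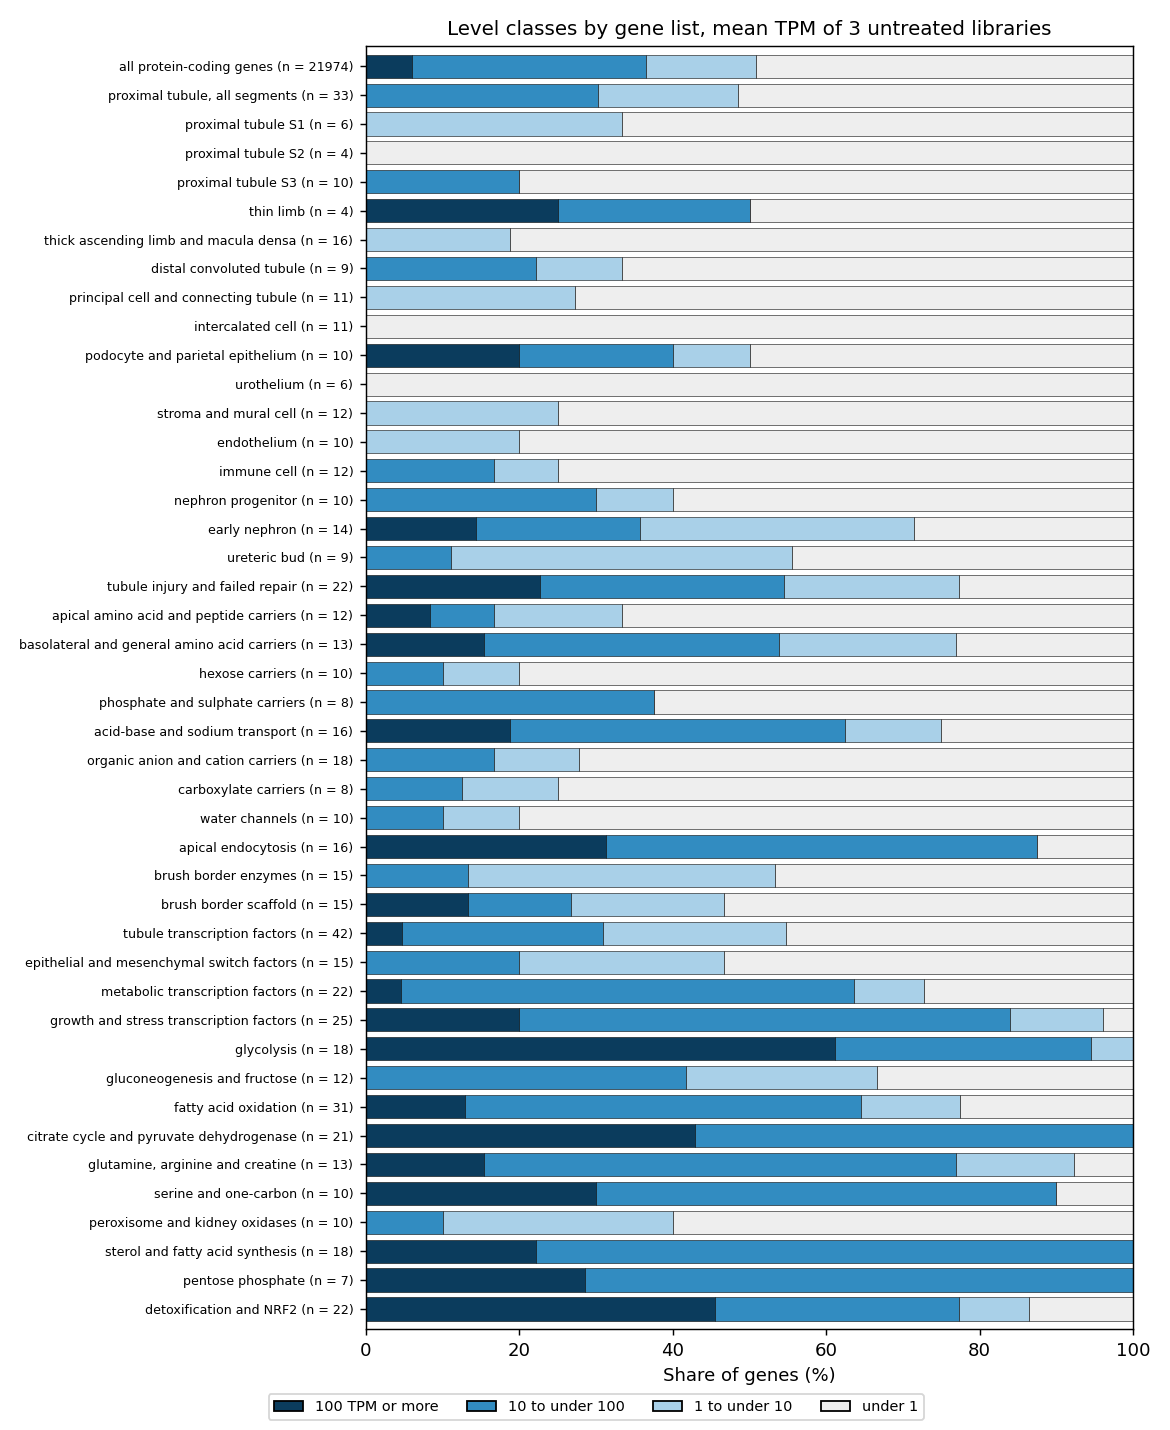
Share of genes (x axis, percent) in 4 level classes by mean TPM of the 3 untreated libraries, for all protein-coding genes (top bar) and for each gene list (number of genes in brackets). Citrate cycle, sterol synthesis and pentose phosphate bars hold no gene under 1 TPM, while the bars for S2, intercalated cell and urothelium markers hold nothing else.

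Markers of the proximal tubule were present in part. Of 33 markers shared by all its segments, 16 (48.5%) were at 1 TPM or more and 10 at 10 or more, against 50.9% and 36.5% of all protein-coding genes, and none was high. The leading members were moderate and close between libraries. Mme, the brush border peptidase neprilysin (chromosome 3, 63241537 to 63386030, GRCm38), was at 81.3, 83.0 and 80.6 TPM in replicates A, B and C. Gpx3, the glutathione peroxidase that the tubule secretes into plasma, was at 77.3, 80.8 and 80.8 TPM, and Pdzk1ip1, a small membrane protein of the tubule, at 72.7, 72.9 and 76.1. Aqp1, the water channel of the proximal tubule and thin descending limb, was at 67.7, 57.5 and 70.5 TPM. The first of these showed almost no spread, and Aqp1 was lowest in replicate B.

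Below them stood enzymes and the endocytic machinery. Ass1, argininosuccinate synthase, averaged 43.2 TPM, Lrp2 (megalin) 33.3, Gatm, the first enzyme of creatine synthesis, 29.6, the endocytic adaptor Dab2 19.3, ketohexokinase (Khk) 15.3 and Cyp4b1 10.5. A second tier of brush border genes was low: Anpep (aminopeptidase N) at 4.10, Dpp4 at 2.29, Ggt1 at 1.96, Alpl at 1.87, the scaffold Pdzk1 at 1.57 and Ace at 1.13 TPM. In the order of levels over these 16 genes, 6 of the 15 neighbouring pairs overlapped in their library values.

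The absent members include those most often used to define the segment. Hnf4a, the nuclear receptor that marks the differentiated proximal tubule, had 3 counts in all 3 libraries together. Slc9a3, the apical sodium-proton exchanger NHE3, had 1 count, and Pck1, the cytosolic enzyme of gluconeogenesis, had 2. Slc34a1 (the main phosphate carrier), Miox (inositol oxygenase), Fbp1 (fructose bisphosphatase) and the androgen-dependent kidney gene Kap had none. Cubn (cubilin) averaged 0.34 TPM, its partner amnionless (Amn) 0.06 and villin (Vil1) 0.10. The cell type label thus held for some markers and not for the ones just named, and the cells are called untreated PT-22 cells below.

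No segment of the proximal tubule was complete. Of 6 markers of S1, Slc6a19, the neutral amino acid carrier, was at 9.08, 9.93 and 7.95 TPM and Slc4a4, the basolateral bicarbonate carrier, averaged 2.11 TPM. The glucose carriers of S1 were under the limit, with Slc2a2 at 0.85 TPM and Slc5a2 on 2 counts. None of the 4 markers of S2 was expressed: the organic anion carriers Slc22a6 and Slc22a8 had 0 counts and 1 count, and Slc13a3 and Cyp2e1 had 0. Of 10 markers of S3, Atp11a, a phospholipid flippase, averaged 52.5 TPM and Slc6a18, a neutral amino acid carrier, 14.5 TPM, while Slc5a1 (SGLT1) and Slc7a13 had no count. In Slc6a18 the libraries read 15.9, 12.5 and 15.01 TPM, with replicate B lowest.

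Over the 4 proximal tubule lists, 20 of 53 markers (37.7%) were at 1 TPM or more. For 5 lists of later tubule segments it was 11 of 51 (21.6%), and for stroma, endothelium, immune cells and urothelium together 8 of 40 (20%), while podocyte and parietal markers gave 5 of 10 (50%). All of these shares were below the 50.9% of protein-coding genes in general.

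Later tubule segments were represented by single genes rather than by their defining ones. In the thin limb list Cryab, a small heat shock protein, was high at 535, 520 and 538 TPM and Bst1 averaged 13.2, but the urea carrier Slc14a2 was at 0.04 TPM. Of 16 thick ascending limb and macula densa markers, only Ptgs2 at 1.60, Nos1 at 1.35 and Egf at 1.09 TPM passed the limit, and the defining Umod (uromodulin) had 1 count and Slc12a1 (NKCC2) 12. For the distal convoluted tubule, the kinase gene Wnk4 averaged 28.5 TPM, the potassium channel gene Kcnj16 23.0 and the magnesium channel gene Trpm6 3.55, while the defining Slc12a3 (NCC) had 4 counts and Pvalb none. Principal cell markers at 1 TPM or more were Hsd11b2 at 2.69, Gata3 at 2.25 and Scnn1a at 1.69 TPM; Aqp2 had 1 count. Of 11 intercalated cell markers none was at 1 TPM, and Foxi1, the factor that specifies these cells, had no count.

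Glomerular markers were expressed in part, and most stromal, endothelial, immune and urothelial markers were under 1 TPM. Podocyte and parietal markers gave 5 of 10 at 1 TPM or more, led by the anchoring protein Akap12 at 690, 703 and 692 TPM, the actin-binding Synpo at 112, 115 and 107, and the parietal claudin Cldn1 at 69.8, 72.1 and 66.3. Nphs1 (nephrin), the slit diaphragm gene that defines podocytes, was not among them and averaged 0.42 TPM. In the stroma list Dcn (decorin) averaged 4.30, Des (desmin) 1.53 and Postn 1.42 TPM, with Pdgfra at 0 counts and Pdgfrb on 16. For endothelium Ehd3 averaged 2.09 and Plvap 1.01 TPM, with Cdh5 at 0 counts and Pecam1 at 0.12 TPM. Plvap was at 1 TPM or more in 2 of the 3 libraries, and its mean was under 1 without replicate B and without replicate C, so that the endothelial count was then 1. None of 6 urothelial markers passed.

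Among 12 immune markers, Cd68, a lysosomal glycoprotein gene used for macrophages, was at 22.5, 20.2 and 21.9 TPM, and Csf1r, the receptor for the macrophage growth factor, at 11.5, 11.2 and 13.4. Cd74 averaged 1.79, Ptprc (CD45) 0.63 and Lyz2 0.42 TPM, and Adgre1, Cd3e, Ms4a1, C1qa and C1qb had no count. The summed level of the list lay between 34.2 and 38.4 TPM in the 3 libraries. In bulk RNA, fewer cells of a type and less RNA per cell cannot be told apart, and the part of other cells in these values was not tested.

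**Figure D2:**
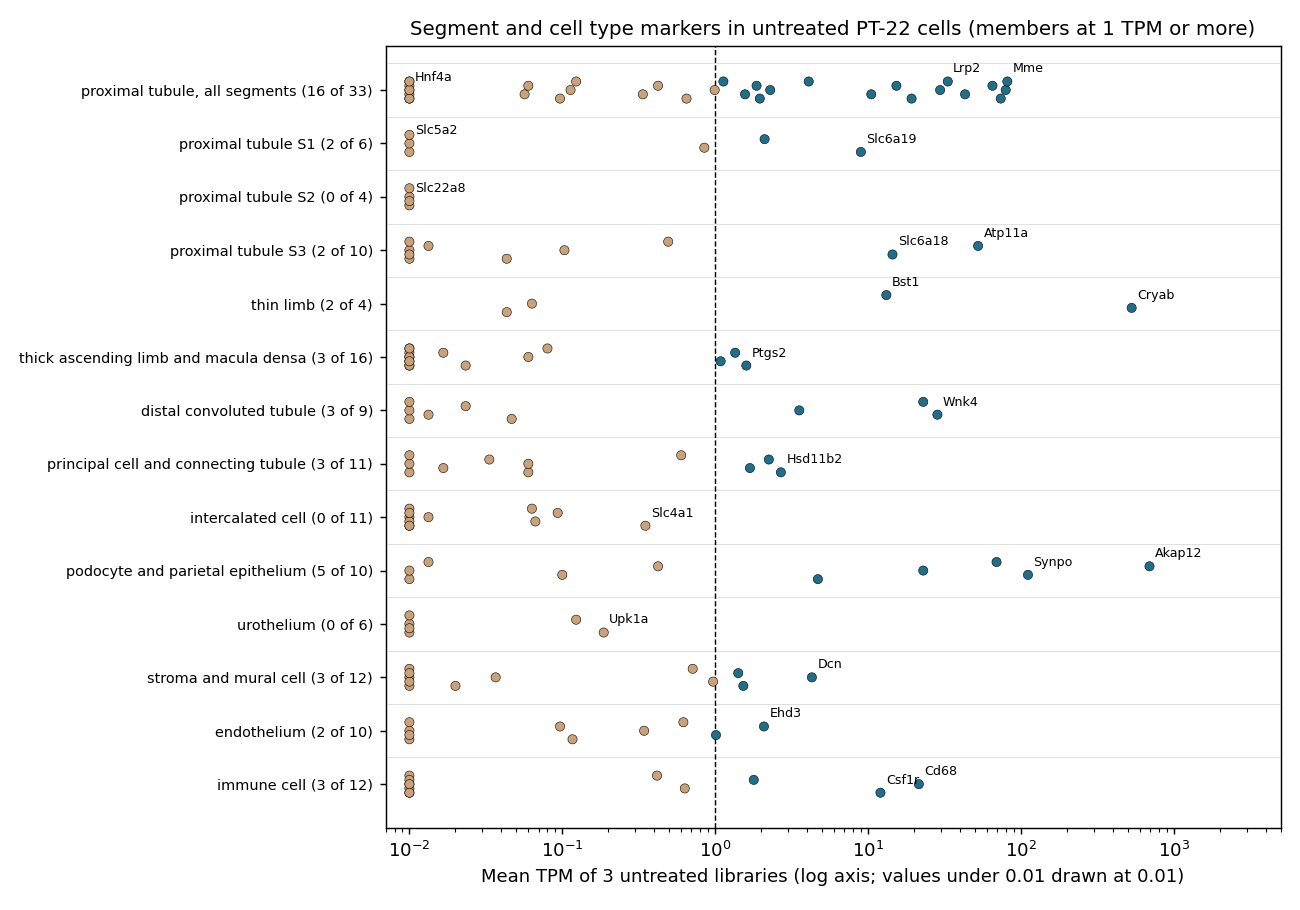
Mean TPM of the 3 untreated libraries (x axis, log scale) for each marker of 14 kidney cell types and segments, a point per gene; blue points are at 1 TPM or more (dashed line), tan points under it, and values under 0.01 are drawn at 0.01. Proximal tubule markers spread over the whole range up to Mme at 81.6 TPM, with Hnf4a at the left edge, and no S2, intercalated cell or urothelial marker reaches the line.

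Transcription factors of the forming nephron led the tubule factors, while Hnf4a, which marks the mature proximal tubule, was at or near 0. Of 42 tubule factors, 23 (54.8%) were at 1 TPM or more, close to the background of 50.9%. At 10 or more were 13 of the 42, beside a background of 36.5%. Pax8, the paired-box factor that drives nephron formation (chromosome 2, 24420560 to 24475599), was the highest at 184, 190 and 184 TPM, within a range that no other factor reached. Reads of the resident gene and of the Pax8 vector cannot be told apart in this gene-level value, and an exon of the gene overlaps 1 other gene on the opposite strand. Cux1 averaged 108, Sox4 82.5, Irx3 46.8, Sim2 46.3, Emx2 21.97, Irx5 18.3 and Sall1 15.3 TPM. Pax2 (chromosome 19, 44756045 to 44837871) was at 12.0, 12.4 and 13.8 TPM although the label gives Pax2-/-. A level summed over the whole gene does not check a deletion of part of it, and which exons the allele lacks is not given in the sources used here.

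Hnf4a and its relative Hnf4g rested on 3 counts each, and Esrrb and Klf15 averaged 0.02 and 0.09 TPM. Nr1h4, the bile acid receptor FXR of the proximal tubule, averaged 12.7 TPM, and Maf 5.78. No count was found for 8 factors, among them the progenitor factor Six2, the podocyte and stromal factor Tcf21 and the distal tubule factor Tfap2b. Of 22 neighbouring pairs in the order of the 23 expressed factors, 7 overlapped between libraries.

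**Figure D3:**
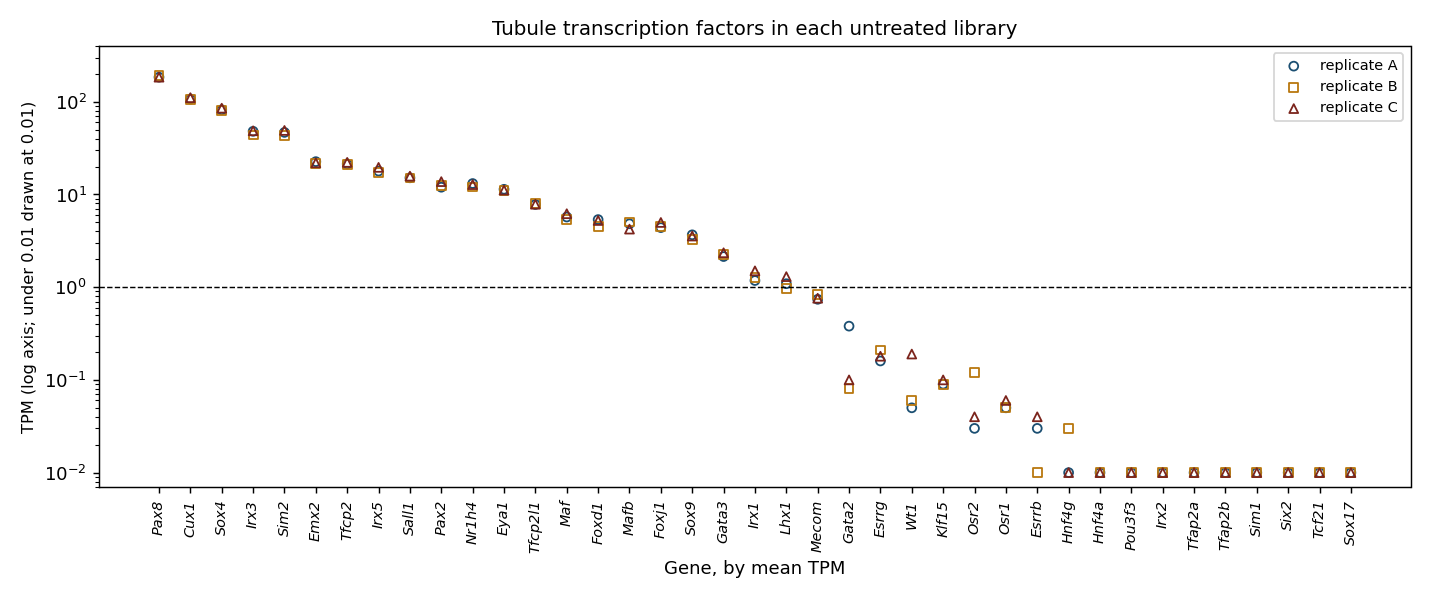
TPM of tubule transcription factors (x axis, ordered by mean) in each of the 3 untreated libraries (y axis, log scale, values under 0.01 drawn at 0.01; dashed line at 1 TPM). The 3 symbols of each expressed factor lie almost on each other from Pax8 at 186 TPM down to Lhx1 at 1.12, and spread apart among factors under 1 TPM such as Wt1.

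Genes of the developing kidney were expressed in part. Of 14 early nephron genes 10 (71.4%) were at 1 TPM or more, beside the background of 50.9%. Pax8 led, then Cdh6, the cadherin of the early proximal tubule, at 151, 161 and 156 TPM. Wnt4, the signal that turns progenitors into epithelium, averaged 12.0 and the Notch ligand Jag1 6.83 TPM, and Lhx1 was close to the limit at 1.12. The nephron progenitor list gave 4 of 10 (40%), led by the growth factor gene Gdnf at 17.4, 17.3 and 18.1 TPM, Sall1 and Eya1 at 11.2. Six2 and Itga8 had no count. The ureteric bud list gave 5 of 9 (55.6%), close to the background, led by Emx2 and by Wnt7b at 9.97 TPM. Gfra1, the co-receptor for GDNF, averaged 9.43, and the signalling receptor Ret 0.02. Hox genes, which record position along the body axis, split by cluster: 9 of 10 Hoxb genes, 8 of 11 Hoxa genes and 7 of 9 Hoxc genes were at 1 TPM or more, but none of 9 Hoxd genes, each of which had no count. Over the whole family 24 of 39 (61.5%) passed 1 TPM. Hoxb9 was the highest at 65.1, 65.9 and 64.1 TPM, followed by Hoxc10 at 38.2 and Hoxb7 at 34.7.

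Carriers found in most cell types were expressed, and many carriers of renal reabsorption were at or near 0. Over the transport and apical lists, 68 of 139 genes were at 1 TPM or more, which is close to the background of 50.9%. In the whole solute carrier family it was 180 of 383 (47%), led by the mitochondrial phosphate carrier Slc25a3 at 675 TPM and the nucleotide exchanger Slc25a5 at 339. By subfamily, 38 of 47 mitochondrial Slc25 genes, 21 of 27 Slc35 nucleotide sugar carriers and 15 of 24 zinc carriers were expressed, against 6 of 25 Slc22 organic ion carriers and 2 of 13 sodium-coupled Slc5 carriers.

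Among amino acid carriers, 10 of 13 general or basolateral genes (76.9%) were at 1 TPM or more, beside the background of 50.9%. The leading members were Slc38a2, a neutral amino acid carrier that cells induce when amino acids run short, at 296, 285 and 290 TPM, and Slc3a2, the heavy chain of several exchangers, at 203, 209 and 210. Slc7a5, the light chain LAT1, averaged 47.0 and the cationic carrier Slc7a1 55.9, whereas Slc7a11, the cystine carrier, averaged 0.68 and Slc7a8 0.33 TPM. Of 12 apical genes 4 (33.3%) were expressed: the taurine carrier Slc6a6 at 129, 129 and 132 TPM, then Slc6a18, Slc6a19 and the lysosomal proton-coupled Slc36a1 at 8.14. The cystine carrier pair of the brush border was under the limit, with Slc3a1 at 0.49 and Slc7a9 at 0.03 TPM, and the peptide carriers Slc15a1 and Slc15a2 had no count.

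For sugar and phosphate the widely expressed carriers were present and the renal ones were not. Slc2a1 (GLUT1) was at 33.4, 32.6 and 34.8 TPM and Slc2a8 averaged 7.13, and no other of 10 hexose carriers passed 1 TPM, although Slc2a2 did so in replicate B. The sodium-glucose carriers Slc5a1 and Slc5a9 had no count. For phosphate, Slc20a1 averaged 44.5, Slc20a2 21.1 and the exporter Xpr1 21.1 TPM. The values of Slc20a2 and Xpr1 overlapped between libraries. The renal carriers Slc34a1 and Slc34a3 had 0 and 3 counts, and the sulphate carrier Slc13a1 had 1.

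Sodium and acid-base transport gave 12 of 16 genes (75%) at 1 TPM or more, beside the background of 50.9%. Atp1b1, the beta subunit of the sodium pump, was at 355, 349 and 354 TPM, with no count for the kidney's gamma subunit Fxyd2. The cytosolic carbonic anhydrase Car2 was at 143, 136 and 151 TPM and the anion exchanger Slc4a2 averaged 98.0, while the brush border anhydrase Car4 had no count. Of the sodium-proton exchangers, Slc9a8 averaged 18.1 TPM, beside the single count for Slc9a3. Aqp1 was the leading water channel, followed by Aqp5 at 3.54, and Aqp3 was uneven at 0.16, 1.04 and 0.60 TPM.

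Organic ion carriers were led by exporters. Of 18 genes 5 (27.8%) were at 1 TPM or more, beside the background of 50.9%. These were Abcc4 at 60.3, Abcg2 at 27.2, Abcc1 at 19.2 and the carnitine carriers Slc22a5 at 7.15 and Slc22a4 at 5.28 TPM. The uptake carriers Slc22a2, Slc22a6 and Slc22a12 and the steroid carrier Slco4c1 had no count. Lactate was served by Slc16a1 (MCT1) at 59.4, 63.2 and 57.7 TPM and Slc16a3 at 9.31, and the sodium-coupled lactate and citrate carriers Slc5a12, Slc5a8 and Slc13a2 lay between no count and 0.06 TPM. Of 92 potassium channel genes 12 (13%) were expressed, beside the same background. They were led by Kcnk5, the acid-sensitive TASK2 channel of the proximal tubule, at 85.3, 68.8 and 79.7 TPM.

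The machinery of endocytosis was expressed around an incomplete receptor. Of 16 genes 14 were at 10 TPM or more, beside a background of 36.5%. Among them were the adaptor subunit Ap2m1 at 857, 807 and 857 TPM, Rab7 at 266, Rab11a at 179.5, clathrin heavy chain (Cltc) at 175 and the chloride exchanger Clcn5, the Dent disease gene, at 44.3. Lrp2 was at 29.1, 34.2 and 36.5 TPM, lowest in replicate A, and its chaperone Lrpap1 averaged 32.1. The exceptions were Cubn at 0.36, 0.31 and 0.34 TPM and Amn on 8 counts, the pair that forms the cubilin complex. Of 23 V-ATPase subunits 18 (78.3%) were at 1 TPM or more, beside a background of 50.9%. The intercalated cell markers Atp6v1b1, Atp6v0d2 and Atp6v1g3 were not, with 1, 4 and 0 counts.

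Brush border genes were expressed in shares close to the background of 50.9%. Enzymes gave 8 of 15 genes (53.3%) at 1 TPM or more. Only Mme and the glutamyl aminopeptidase Enpep, at 18.4 TPM, reached 10, where the background was 36.5%, while Mep1b, Xpnpep2 and Car4 had no count. At a limit of 2 TPM the enzyme count was 4. Of 15 scaffold genes 7 (46.7%) were at 1 TPM or more. Prom1 (prominin, a protein of membrane protrusions) was at 295, 279 and 326 TPM, ezrin (Ezr) at 178, 174 and 187 and its partner Slc9a3r1 averaged 60.2. Several microvillus members were under the limit, with Vil1 at 0.10, Cdhr2 and Cdhr5 at 0.12, Myo7b at 0.19 and Myo1a at 0.09 TPM. Ush1c had no count. Other scaffold members passed the limit at low levels, with Eps8 at 8.0, Pls1 at 2.12 and Pdzk1 at 1.57 TPM.

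Most metabolic genes were expressed. Over the metabolism lists 140 of 162 genes were at 1 TPM or more and 125 at 10 or more, beside backgrounds of 50.9% and 36.5%. All 18 glycolysis genes passed 1 TPM, with Gapdh, Pkm at 779, Pgam1 at 569, Ldhb at 546, Aldoa at 540 and Eno1 at 516 TPM in front. All 21 genes of pyruvate dehydrogenase and the citrate cycle were at 10 TPM or more, from Suclg2 at 27.6 to Mdh2 at 420. In the respiratory chain, 36 of 36 nuclear complex I genes, 20 of 26 of complexes III and IV and 17 of 18 ATP synthase genes were expressed.

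**Figure D4:**
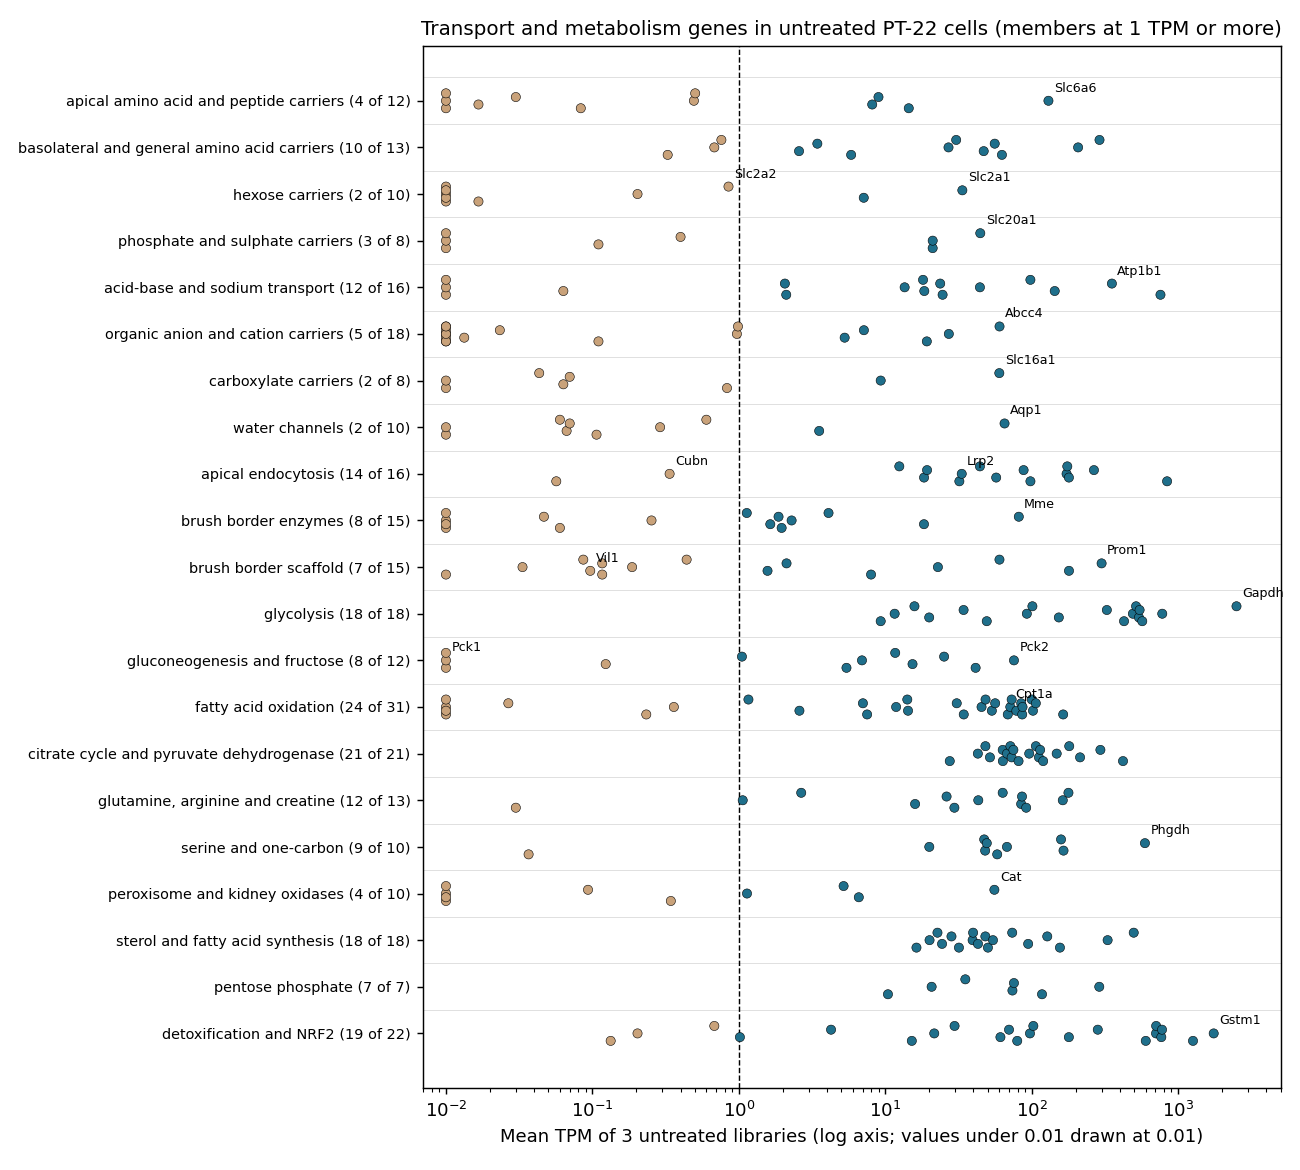
Mean TPM of the 3 untreated libraries (x axis, log scale, values under 0.01 drawn at 0.01) for each gene of the transport, brush border and metabolism lists, a point per gene; blue points are at 1 TPM or more (dashed line), tan points under it. Carrier lists hold many points at the left edge, whereas glycolysis, citrate cycle, sterol synthesis and pentose phosphate have none left of the line. Of 18 organic ion carriers 5 (27.8%) were expressed, beside 50.9% of all protein-coding genes.

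Of 12 genes of gluconeogenesis and fructose handling, 8 (66.7%) were at 1 TPM or more, beside the background of 50.9%. Pck2, the mitochondrial carboxykinase, was at 76.9, 75.7 and 74.3 TPM, the ubiquitous glucose-6-phosphatase G6pc3 averaged 25.2, the glucose-6-phosphate carrier Slc37a4 6.93 and pyruvate carboxylase (Pcx) 5.43. The genes best known for making glucose in liver and kidney, Pck1, Fbp1 and G6pc, had 2, 0 and 1 counts, and another fructose bisphosphatase gene, Fbp2, was at 0.77, 1.03 and 1.35 TPM. For fructose, Khk was expressed beside sorbitol dehydrogenase (Sord) at 41.4.

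Fatty acid oxidation gave 24 of 31 genes (77.4%) at 1 TPM or more, beside the background of 50.9%. Mitochondrial steps were between moderate and high, with Etfb at 164, Acadl at 107, Acaa2 at 102, Acadm at 100.1 and the entry enzyme Cpt1a at 69.6, 69.8 and 75.0 TPM. Targets tied to PPAR alpha in liver and proximal tubule were at or near 0: Ehhadh averaged 0.23 and Acaa1b 0.36 TPM, and Cyp4a10, Cyp4a14 and Fabp1 had no count. Peroxisomal and kidney oxidases gave 4 of 10 (40%), with catalase (Cat) at 55.7, 55.4 and 55.7 TPM, and no count for Hao1, Hao2 and Miox.

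Several genes of amino acid synthesis and redox defence were high. Phgdh, the first enzyme of serine synthesis, was at 606, 597 and 577 TPM, Psat1 averaged 165, Psph 48.1 and Shmt2 159. Glud1 averaged 178, ornithine decarboxylase (Odc1) 163, glutamine synthetase (Glul) 91.7 and asparagine synthetase (Asns) 85.9. Gstm1, a glutathione transferase, was at 1709, 1670 and 1866 TPM, and metallothionein Mt1 at 1285, 1268 and 1237, which places both among the 25 highest genes outside mitochondria and ribosomes. Sod1 averaged 776, Gpx4 708 and Prdx1 706 TPM, and the alpha class transferases Gsta1 and Gsta2 0.13 and 0.20. Reads of near-identical paralogs, such as the Gstm genes, may be divided between entries.

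Synthesis of sterols and fatty acids was represented by every gene of its list. All 18 sterol and fatty acid synthesis genes were at 10 TPM or more, with Fdps at 514, 507 and 470, Scd2 at 330, Sqle at 156 and Acly at 128 TPM, and Srebf2, the factor that drives sterol genes, at 255, 253 and 256. The pentose phosphate list gave 7 of 7, led by transketolase (Tkt) at 289. Drug-metabolising families differed. Of glutathione S-transferases 17 of 22 (77.3%) were at 1 TPM or more and 4 were high, beside backgrounds of 50.9% and 5.96%. By contrast, 15 of 99 cytochrome P450 genes (15.2%) and 4 of 22 UDP glucuronosyltransferases (18.2%) passed 1 TPM. The highest of these were Cyp20a1 at 33.1, Cyp4f16 at 28.3 and Ugt1a1 at 14.0. Exons of the Ugt1a genes overlap, so their values are uncertain. Aldehyde dehydrogenases gave 13 of 21 (61.9%), led by Aldh1a2, which makes retinoic acid, at 144, 141 and 142 TPM.

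The metabolic transcription factors divided by paralog. Hif1a was at 47.0, 46.5 and 45.9 TPM and its relative Epas1 (HIF2 alpha) at 0.31, 0.35 and 0.29. Ppard averaged 21.0, Pparg 2.50 and Ppara 0.08 TPM, and Ppargc1a (PGC1 alpha), the coactivator of mitochondrial genes, was at 12.9, 12.9 and 12.7 beside Ppargc1b at 0.35. Tfam averaged 94.5, Nfe2l2 (NRF2) 52.4 and Esrra 14.7. Growth and stress factors gave 24 of 25 (96%) at 1 TPM or more, beside the background of 50.9%. They were led by Atf4 at 522, 518 and 478 TPM, Jund at 234, Trp53 at 140, Rela at 107 and Myc at 95.2, and Mycn at 0.44 was the exception.

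Hormone makers and receptors were expressed in part, beside the background of 50.9%. Of 12 hormone makers and handlers 5 (41.7%) passed 1 TPM, led by angiotensinogen (Agt) at 16.0, 16.4 and 16.5, with the vitamin D receptor gene Vdr at 4.19 and Kl (klotho), the co-receptor for FGF23, at 3.02. Cyp27b1, which makes active vitamin D, averaged 0.42 TPM, the degrading Cyp24a1 0.01, and Epo had no count. Of 31 receptors 21 (67.7%) were expressed, with Tgfbr2 at 140, 138 and 144 TPM, the collagen receptor Ddr1 at 118, Met at 56.7 and Egfr at 24.1. Receptors for hormones that act on the proximal tubule were under the limit for parathyroid hormone (Pth1r, 0.34) and angiotensin II (Agtr1a and Agtr1b, no count), while the mineralocorticoid receptor Nr3c2 averaged 19.6 and the glucocorticoid receptor Nr3c1 28.6.

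Kidney cadherins were expressed, and E-cadherin was under the limit. Cdh16, the kidney-specific cadherin (chromosome 8, 104601911 to 104624396), was at 468, 464 and 472 TPM, Cdh6 averaged 156, Cdh2 (N-cadherin, the cadherin of the proximal tubule) 108 and Cdh3 30.8. Cdh1 (chromosome 8, 106603351 to 106670246) was at 0.14, 0.26 and 0.21. The catenins Ctnna1 and Ctnnb1 averaged 170 and 113 TPM, Epcam 11.3, Tjp1 38.1 and Ocln 4.30. Of 25 claudins, which set the tightness of the paracellular path, 4 (16%) were expressed, beside the background of 50.9%. These were Cldn1, Cldn12 at 46.6, Cldn3 at 23.0 and Cldn9 at 2.11. Cldn2, the pore-forming claudin of the proximal tubule, averaged 0.57, and Cldn10 had 2 counts.

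Among intermediate filaments, vimentin was far above the keratins. Vim was at 623, 612 and 639 TPM. Of 53 keratins 5 (9.43%) were at 1 TPM or more, beside the background of 50.9%, led by Krt80 at 30.2 and Krt20 at 12.2. Krt8 was at 0.87, 1.09 and 0.88 TPM, straddling the limit, and its simple epithelial partners Krt18 and Krt19 had 4 and 5 counts. Factors that set epithelial against mesenchymal state were mixed: Twist2 averaged 23.0, Zeb1 16.5 and Twist1 1.70 TPM on the mesenchymal side and Elf3 11.7, Ehf 3.33 and Esrp2 2.89 on the epithelial side. Snai2 and Prrx1 had no count, and the epithelial Grhl2 and Esrp1 averaged 0.08 and 0.01 TPM. Matrix genes were led by Sparc at 475, Fn1 (fibronectin) at 449, 480 and 491, and Col18a1, a basement membrane collagen, at 450, 449 and 442 TPM. Of the type IV collagen chains, named after their values were seen, the glomerular Col4a3, Col4a4 and Col4a5 averaged 5.43, 7.93 and 36.7, the broadly used Col4a1 and Col4a2 1.5 and 1.64, and Col3a1 rested on 2 counts.

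Markers used for injured or incompletely repaired tubule were present in 17 of 22 cases (77.3%), against 50.9% of all protein-coding genes. At 10 TPM or more were 12 of them, where the background was 36.5%. Spp1 (osteopontin) was at 843, 844 and 828 TPM, Cd24a at 382.8, 392.8 and 391.9, Clu (clusterin) at 131, 136 and 124, and Dcdc2a averaged 79.9. The classical injury markers were lower: Havcr1 (KIM-1) was at 5.85, 6.34 and 6.24 TPM, Vcam1 averaged 4.67, Sox9 3.50 and Lcn2 (NGAL) 0.83. The summed level of the list differed little, between 2420 and 2430 TPM.

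Proliferation genes were expressed together with cell cycle inhibitors. Of 24 cell cycle genes 23 (95.8%) passed 1 TPM, beside the background of 50.9%. Cdk4 was at 715, 638 and 650, Pcna at 598, 592 and 587, Cdk1 at 336 and Mki67 at 40.9 TPM. The D cyclins were uneven, as Ccnd3 averaged 59.5 and Ccnd1 2.35 TPM and Ccnd2 had no count. All 10 inhibitor and immortalisation genes passed, led by Cdkn2a, which encodes p16 and p19ARF, at 829, 811 and 791 TPM, with Cdkn1a at 105, Cdkn2b at 94.2, Tert at 17.9 and Rb1 at 9.27. A gene-level value does not separate the 2 products of Cdkn2a.

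Pairs of related genes, chosen after their values were seen, summarise the profile, as ratios of TPM within each library. Lrp2 exceeded Cubn 81.0- to 110-fold, Slc2a1 exceeded Slc2a2 30.2- to 51.3-fold, Hif1a exceeded Epas1 133- to 158-fold, and Ppard exceeded Ppara 242- to 306-fold. Cdh2 exceeded Cdh1 413- to 771-fold, a wide range that rests on 138 counts of Cdh1. Where both partners were expressed, the spread of the ratio varied: Hk1 over Hk2 lay between 7.97 and 8.01, Ldhb over Ldha between 1.66 and 1.69, Cpt1a over Cpt1b between 57.6 and 66.9 and Ccnd3 over Ccnd1 between 21.4 and 28.2. In every pair the first gene was higher in 3 of 3 libraries, which is no separate result, as the pairs were chosen with their values known.

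**Figure D5:**
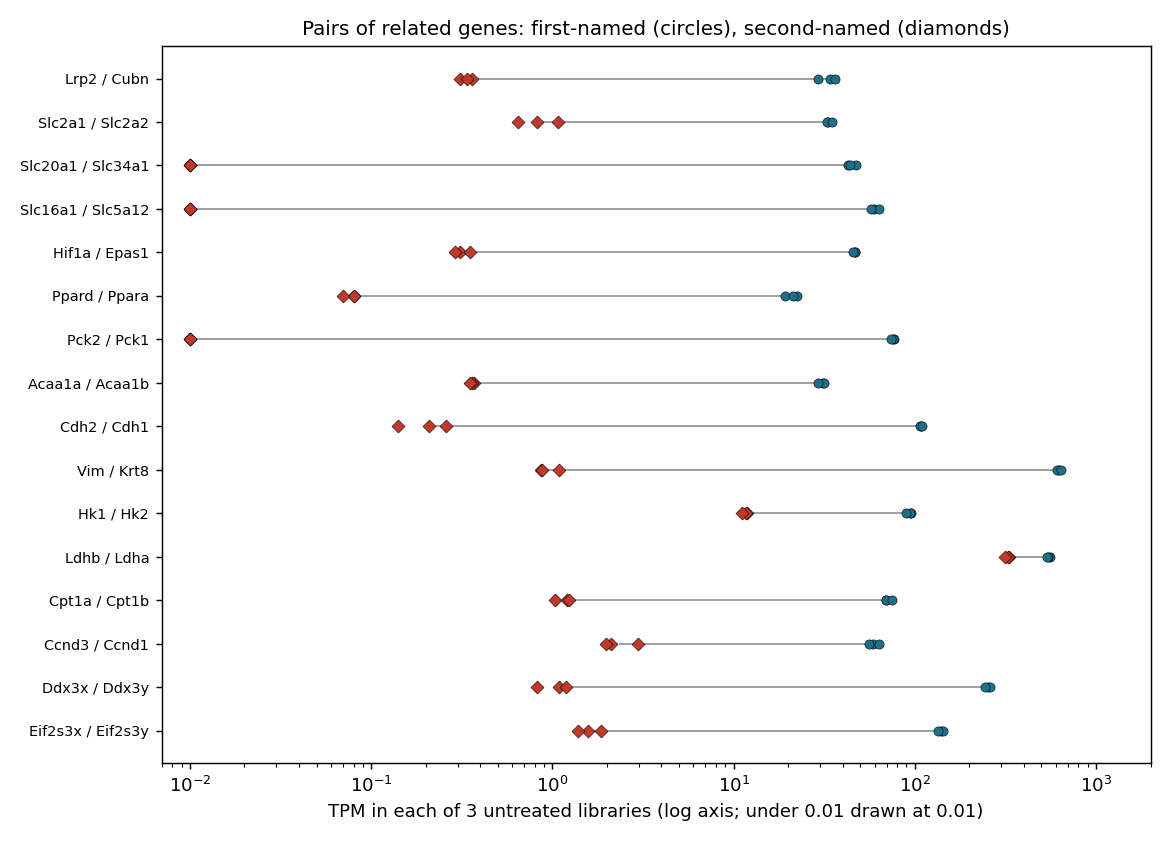
TPM in each of the 3 untreated libraries (x axis, log scale, values under 0.01 drawn at 0.01) for pairs of related genes; circles are the first-named and diamonds the second-named gene, and a line joins their means. Circles lie to the right of diamonds in each pair, the pairs being chosen with their values known. The pairs range from Ldhb over Ldha, where the symbols nearly meet, to Slc20a1 over Slc34a1, where the second gene is at the left edge.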

How the data were processed

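Expression was measured by sequencing of polyadenylated RNA. Only the 3 untreated day 0 libraries of PT-22 cells were used, out of 9 columns in each table. The authors deposited TPM per gene, with 2 decimals, and these TPM values are the unit of every level given. The authors also deposited whole-number counts per gene, not normalised, which were used here for depth, for counts of 0 and for alternative scalings. STAR 2.7.8a, RSEM 1.3.3, cutadapt 2.3 and FastQC 0.11.8, with the build GRCm38, are named per the submitters' processing notes. Which step each tool did, the strand setting and the annotation release were not given in the sources used here.

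Gene types, positions and exon lengths came from GENCODE M21 (GRCm38), which held 55227 of the 55487 gene identifiers in the 55491 entries. Means, SDs, level classes (100, 10 and 1 TPM) and the counts of list members in each class were computed in Python 3.11.15 with pandas 2.3.3 and NumPy 2.4.6, and plotted with matplotlib 3.10.9. The level classes and the size of the coefficient of variation were checked on simulated data. Reading of the tables, list counts, ratios and rescalings were not. No statistical test was made, since a single group was described.

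The text names members of 50 gene lists (666 genes) and of 28 gene families (their 5 highest members and defining members under 1 TPM), the 25 highest protein-coding genes, the 20 highest solute carriers and the transgene entries. The members, the lists and the alternatives were chosen with earlier results of these data known, and the 18 gene pairs after their values were seen. Of the 666 listed genes, 36 overlap an exon of some other gene in the same direction and 179 in the opposite direction, so reads of such genes may be divided between entries. Some listed genes are counted in their lists and not reported here by name.

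Alternatives were other level limits, a limit reached in every library, TPM rescaled without mitochondrially encoded genes, TPM recomputed from counts and exon length, CPM, and leaving out each replicate. A rescaling that also leaves out 5 chromosome 1 pseudogenes and an rRNA entry was added after the data were seen.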

Additional observations from a re-analysis of the deposited data

How the results depend on the processing

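Most list counts at 1 TPM stayed within 1.5 times of the reported value in the alternatives run. No paired analysis was possible because a single group was described and no test was made. The exceptions are given next. The number of protein-coding genes at or above 100 TPM was 2870 with a limit of 50 TPM, 570 with a limit of 200 TPM and 2396 in CPM. With a limit of 2 TPM the thick ascending limb list had 0 expressed members, the stroma list 1 and the endothelium list 1. The stroma list had 5 with a limit of 0.5 TPM, and also 5 when TPM was rescaled without mitochondrial genes, chromosome 1 pseudogenes and rRNA, an alternative added after the data were seen. The endothelium list had 1 when the limit had to be reached in every library, and between 1 and 2 when a replicate was left out. The intercalated cell list had 1 in CPM. At 2 TPM the brush border enzymes had 4, the Pax factors 2 and the Lim homeobox factors 1, which was also their number when every library had to reach the limit, and at 0.5 TPM the keratins had 8. The mitochondrially encoded proteins had 0 in both rescalings, which leave them out. The mitochondrially encoded share, 20.82% of TPM over all mitochondrial entries, was 18.56% with annotated exon lengths and 6.794% of counts. The cause of these moves was not tested.

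Depth limits values under 1 TPM, where many listed genes rest on fewer than 30 counts, whereas 6 of the 11183 protein-coding genes at 1 TPM or more do. The 5 chromosome 1 pseudogenes left out in the added alternative held 8.23% of TPM on 1.72% of counts, so all other TPM are scaled down with them. Rescaling without mitochondrial genes multiplied levels by 1.26 and brought 11 more listed genes to 1 TPM, among them Krt8, Lcn2 and Slc2a2. Levels of single genes moved further in other scalings. Over the 666 listed genes the median ratio to the reported level was 1.42 without pseudogenes and rRNA as well. It was 1.37 with annotated exon lengths, where 11 genes came to 1 TPM and 4 fell below it. In CPM, which has no length correction, it was 1.76, with 23 gained and 2 lost.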

Other observations

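The Cre sequence, which the CreERT2 allele supplies, was read at 36.6, 36.4 and 32.2 TPM in replicates A, B and C on 4406 counts in all. The entry for the red fluorescent protein tdTomato, which no label of these samples names, was at 3.31, 2.53 and 3.17 TPM on 584 counts. The entries for eGFP and mCherry had no count in any library.

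Genes of the Y chromosome were low beside their X copies. Ddx3y was at 1.09, 1.19 and 0.82 TPM against 254, 261 and 245 for Ddx3x, and Eif2s3y at 1.57, 1.85 and 1.38 TPM against 139, 143 and 135 for Eif2s3x. Uty averaged 0.50 and Kdm5d 0.37 TPM, and Xist, which silences an X chromosome in female cells, had 1 count in the 3 libraries together.

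Among the 8308 entries at 10 TPM or more, 17 had a coefficient of variation above 50% over the 3 libraries, and 2 of these were protein-coding. Of the 10 widest, 1 was protein-coding, and the widest was the short noncoding Gm27286 at 39.5, 8.45 and 0 TPM on 8 counts. The 7SL RNA copy Rn7s1 differed on more reads, at 0, 178 and 175 TPM, with 0, 442 and 505 counts.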
